A study of Rattus norvegicus with 2 samples.

Results

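Chromatin modifiers and remodelers were examined in H9c2, an embryonic rat heart cell line with myoblast features. The members were protein-coding rat genes whose symbols start with Hdac, Sirt, Kdm, Kmt, Setd or Smarc, or with Kat, Chd or Brd and a digit. A further condition was a mean over both libraries of at least 1 FPKM (the fragments of a gene per transcript length and per library size). The symbol rule covers 104 protein-coding genes in the rat gene table, of which 30 were listed in the files and 21 reached that mean. These 21 members stand among 4366 genes that met the same level, called measured genes here. The other 74 genes covered by the symbol rule were not analysed here.

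Both cultures spent 12 h without serum, the control in medium with 0.9 mM phosphate and the treated culture with 2.5 mM phosphate. Each phosphate level had 1 library, so replicate error is unknown and the conditions could not be compared by a test. Differences are given as log2((high phosphate FPKM + 1)/(control FPKM + 1)), called the log2 ratio, and the added 1 shrinks the differences of weakly expressed genes. Read counts were not in these FPKM files, so the depth behind each value is unknown. Of 15 myogenic markers 6 were listed and 3 reached a mean of 1 FPKM. The muscle intermediate filament gene Des was listed at 129 FPKM in control cells and 153 FPKM under high phosphate, the myogenic factor Myod1 at 6.11 and 1.59 FPKM, and the skeletal actin Acta1 at 1.57 and 1.64 FPKM. The differentiation markers Myog, Myh3 and Chrna1 were under 1 FPKM in both libraries. Of 16 cardiomyocyte markers 4 were listed and none reached a mean of 1 FPKM, with Myh7 and Ryr2 at 0 in both libraries. Of 10 endothelial markers 5 were listed and none reached that level, while of 10 leukocyte markers 4 were listed and 1, Cd68, reached it with 1.06 and 1.38 FPKM beside Ptprc at 0 in both.

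Histone tails carry acetyl and methyl groups that writers add, erasers remove and readers bind, and remodelers use ATP to slide, evict or exchange nucleosomes. In muscle precursors, histone deacetylases restrain the myogenic transcription factors, and SWI/SNF remodelers open the chromatin of muscle genes during differentiation. Several of these enzymes depend on metabolites: acetyltransferases on acetyl-CoA, methyltransferases on S-adenosylmethionine, sirtuins on NAD, and the demethylases with a JmjC domain on oxygen and 2-oxoglutarate.

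All but 2 members were less than 1.5-fold apart on this scale. Of the 21 members, 1 was at least 2-fold higher in high phosphate (1.76% of measured genes were) and 0 were at least 2-fold lower (0.87% of measured genes). At a threshold of 1.5-fold, the same 1 member was higher (7.21% of measured genes) and 1 was lower (3.37%). The higher member was Smarca4, which passed the level filter only through the high phosphate library, so it had to differ. The log2 ratio was above 0 for 9 members, 42.9% of them, against 50.5% of measured genes, and below 0 for 12 members, where 49.4% of measured genes lay. The median log2 ratio of the members was -0.11, and that of all measured genes was 0.00. Writers numbered 5, erasers 10, readers 1 and remodelers 5, with median log2 ratios of 0.08, -0.11, -0.22 and -0.37. The ranges of these roles overlapped. The order of their medians did not hold without the filter on low values, where the medians were -0.052 for writers and -0.070 for remodelers. With both libraries at the same sum the order was kept, with medians of -0.079, -0.27, -0.31 and -0.51. That rescaling moved the median of all measured genes to -0.15. RNA was taken from whole cultures, so fewer cells with a transcript and less of it per cell cannot be told apart.

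**Figure D1:**
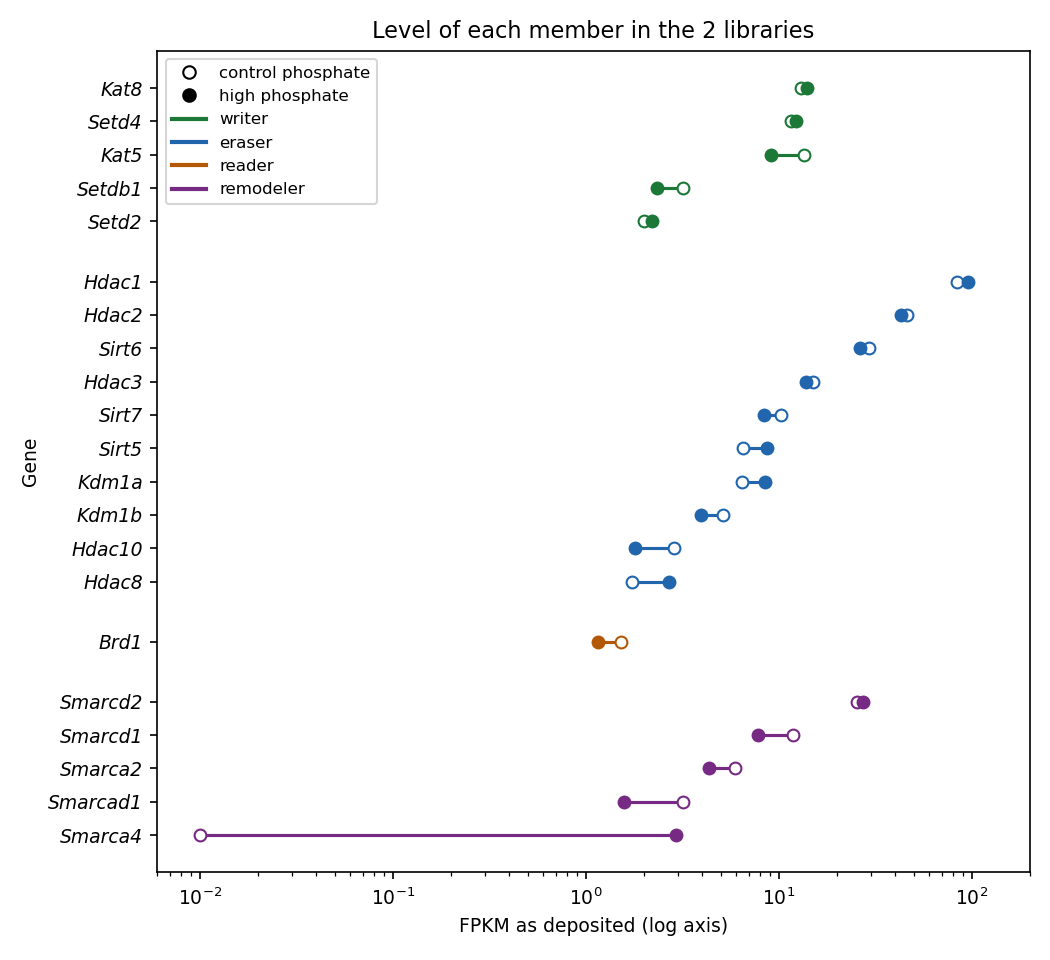
FPKM of the 21 members in the control (open circles) and high phosphate library (filled circles) on a log axis, grouped by role and ordered by mean within each role, with 1 library per condition. Most pairs of circles nearly touch; Hdac1 and Hdac2 are the highest erasers, and Smarca4 spans from 0.01 FPKM in the control to 2.93 FPKM in high phosphate.

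The promoters of 4 members are shown because these had the 2 lowest and the 2 highest log2 ratios among members with a mean of at least 5 FPKM and a promoter in the reference table. They were Smarcd1 and Kat5 at the low end, and Kdm1a and Sirt5 at the high end. Each sequence is the 250 bases before the gene's start, 5′ to 3′ on the gene's strand, from RefSeq on the build GRCr8, whereas the processing notes name Rnor_6.0. Capitals mark GGGCGG, the GC box, and ACGTG, a form of the core sequence bound by hypoxia-inducible factors, on either strand. The other form of that core, GCGTG, was not searched, marked or counted, so an unmarked promoter can still hold it. The positions are chr7:132708377-132708626 on the plus strand for Smarcd1, and, on the minus strand, chr1:212332394-212332643 for Kat5, chr5:154121776-154122025 for Kdm1a and chr17:21543057-21543306 for Sirt5.
Smarcd1: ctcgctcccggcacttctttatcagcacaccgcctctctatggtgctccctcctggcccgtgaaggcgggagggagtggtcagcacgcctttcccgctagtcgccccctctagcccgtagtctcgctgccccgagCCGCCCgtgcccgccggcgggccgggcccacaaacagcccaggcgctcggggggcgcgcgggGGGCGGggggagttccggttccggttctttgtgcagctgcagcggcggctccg
Kat5: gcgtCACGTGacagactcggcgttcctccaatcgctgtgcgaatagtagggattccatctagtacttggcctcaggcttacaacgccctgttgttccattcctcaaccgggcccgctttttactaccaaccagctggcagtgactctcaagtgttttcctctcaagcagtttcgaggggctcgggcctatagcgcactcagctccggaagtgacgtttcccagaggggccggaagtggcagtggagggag
Kdm1a: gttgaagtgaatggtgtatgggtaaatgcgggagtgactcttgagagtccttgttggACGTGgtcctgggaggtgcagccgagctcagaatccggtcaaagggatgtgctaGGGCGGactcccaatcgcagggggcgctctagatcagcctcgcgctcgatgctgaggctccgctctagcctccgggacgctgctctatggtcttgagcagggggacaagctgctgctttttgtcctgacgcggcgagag
Sirt5: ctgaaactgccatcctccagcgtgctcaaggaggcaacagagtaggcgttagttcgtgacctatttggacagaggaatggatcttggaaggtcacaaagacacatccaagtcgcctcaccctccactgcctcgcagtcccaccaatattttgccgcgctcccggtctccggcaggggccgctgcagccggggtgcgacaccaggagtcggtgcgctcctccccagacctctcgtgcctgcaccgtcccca

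A promoter was found for 20 of the 21 members. GGGCGG, counted on both strands, was present in 14 of these 20, or 70%, against 60.8% of 3609 measured genes and 32.4% of all 27457 genes with a promoter in the table. ACGTG was present in 6 of 20 members (30%), against 25.1% of measured genes and 16.9% of all genes. The 2 matches of Kat5 are both strands of 1 CACGTG, the E-box, which contains ACGTG. The TATA box sequence TATAAA was in none of the 20 members, and in 6.68% of measured genes. CCAAT was in 35% of members and 37.7% of measured genes. The members had a median of 17 CpG dinucleotides in 250 bases, the same as measured genes, against 6 over all genes, and a range from 2 in Hdac8 to 28 in Smarcd1. The 6 members with ACGTG had log2 ratios on both sides of 0: -0.51 for Kat5, -0.47 for Hdac10, -0.26 for Sirt7, -0.10 for Hdac2, 0.09 for Kat8 and 0.36 for Kdm1a.

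Among the writers, the acetyltransferase Kat5 (TIP60, which acts in DNA repair and transcription) was listed at 13.4 FPKM in control cells and 9.16 FPKM under high phosphate. It was the writer with the lowest log2 ratio, -0.51, and 1.47-fold lower by listed FPKM. The other measured acetyltransferase, Kat8 (MOF, which acetylates the histone H4 tail), was listed at 13.0 and 13.9 FPKM, a log2 ratio of 0.09. Thus the acetyltransferases lay on opposite sides of 0 as deposited.

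Of the methyltransferases, Setdb1, which methylates histone H3 in silenced genes and retroelements, was listed at 3.2 FPKM in control cells and 2.33 FPKM under high phosphate (log2 ratio -0.33). Setd2, which methylates histone H3 along transcribed genes, was listed at 2.01 and 2.2 FPKM (0.09). Setd4, another SET domain methyltransferase, was listed at 11.5 and 12.3 FPKM (0.08). With both libraries set to the same sum of FPKM, the log2 ratios of Kat8, Setd4 and Setd2 turned to -0.07, -0.08 and -0.03, while the median of all measured genes moved to -0.15. Setd4 also turned, to -0.00037, after rescaling without the 100 most abundant entries.

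The erasers held the most abundant members. Hdac1, a catalytic subunit of the NuRD, SIN3 and CoREST repressor complexes, was listed at 83.9 FPKM in control cells and 95.1 FPKM under high phosphate, a log2 ratio of 0.18. Its partner Hdac2 was listed at 46.5 and 43.2 FPKM, a log2 ratio of -0.10. Both genes together held 43.6% of the members' summed FPKM in the control and 46.5% in high phosphate. Hdac1 has 18 pseudogenes and 1 protein-coding copy, Hdac1l, by symbol in the gene table, and the sources used here do not say how shared reads were assigned, so its level is uncertain.

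The remaining zinc-dependent deacetylases were lower in level. Hdac3, the catalytic subunit of the NCoR corepressor complexes, was listed at 15.1 FPKM in control cells and 13.9 FPKM under high phosphate (log2 ratio -0.11). Hdac8, a class I deacetylase that acts on cohesin, was listed at 1.74 and 2.69 FPKM (0.43), the highest log2 ratio among erasers. Hdac10, a polyamine deacetylase, was listed at 2.87 and 1.8 FPKM (-0.47), the lowest among erasers. Hdac8 and Hdac10 thus stood at opposite ends of the role, 1.55-fold higher and 1.59-fold lower by listed FPKM, both from levels under 3 FPKM. Both are erasers here by enzyme family, so the ends of the role are not read as changes in histone erasers.

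Of the sirtuins, the NAD-dependent deacylases, Sirt6, a chromatin-bound enzyme of DNA repair and glucose metabolism, was listed at 29.4 FPKM in control cells and 26.5 FPKM under high phosphate (log2 ratio -0.14). Sirt7, which is concentrated in the nucleolus, was listed at 10.3 and 8.38 FPKM (-0.26). Sirt5, a mitochondrial enzyme that removes succinyl and related groups and is an eraser here by family only, was listed at 6.52 and 8.69 FPKM (0.37). The measured nuclear sirtuins were therefore lower and the measured mitochondrial one higher in high phosphate, by at most 1.33-fold by listed FPKM. After rescaling to the same sum Sirt5 had a log2 ratio of 0.21. The remaining listed sirtuin, Sirt3, was below the level filter at 0.16 FPKM in control cells and 0 under high phosphate.

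The measured demethylases were both flavin-dependent. Kdm1a (LSD1), which removes methyl groups from histone H3 in the CoREST complex, was listed at 6.42 FPKM in control cells and 8.5 FPKM under high phosphate (log2 ratio 0.36). Its relative Kdm1b was listed at 5.16 and 3.96 FPKM (-0.31). They differed in opposite directions, and Kdm1a was the higher of the pair in both libraries. Of 20 genes whose symbols start with Kdm 3 were listed, and the 1 with a JmjC domain, Kdm5a, was at 0.05 and 0.09 FPKM, so the JmjC histone demethylases could not be compared.

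The 1 measured reader, Brd1, a bromodomain scaffold of acetyltransferase complexes, was listed at 1.52 FPKM in control cells and 1.16 FPKM under high phosphate (log2 ratio -0.22). It was also the member with the lowest mean, 1.34 FPKM, so readers as a role are 1 gene near the filter. No other gene of the Brd symbols was listed, and the BET proteins were not analysed here.

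The remodelers held both members past 1.5-fold on the FPKM + 1 scale. Smarca4 (BRG1), an ATPase of SWI/SNF complexes, was listed at 0.01 FPKM in control cells and 2.93 FPKM under high phosphate, a log2 ratio of 1.96. A value near 0 can be a failed estimate, so no fold is given, and Smarca4 passed the level filter only through the high phosphate library. It was 1 of 13 measured genes at or under 0.05 FPKM in the control alone, beside 7 at or under it in high phosphate alone. The level filter admits such genes only through the library in which they are high, so each had to differ; the limit was chosen after the value of Smarca4 was seen.

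Smarca2 (BRM), the alternative ATPase of the same complexes, was listed at 5.92 FPKM in control cells and 4.35 FPKM under high phosphate (log2 ratio -0.37). Smarcad1, an ATPase involved in heterochromatin upkeep and DNA end resection, was listed at 3.18 and 1.58 FPKM (-0.70). It was the lowest member and the 1 that was at least 1.5-fold lower; by listed FPKM without the added 1 it was 2.01-fold lower. Smarcd1 (BAF60A), a SWI/SNF subunit that contacts transcription factors, was listed at 11.8 and 7.83 FPKM (-0.54), 1.51-fold lower by listed FPKM. Its paralogue Smarcd2 was listed at 25.3 and 27.2 FPKM (0.10, and -0.06 after rescaling to the same sum).

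**Figure D2:**
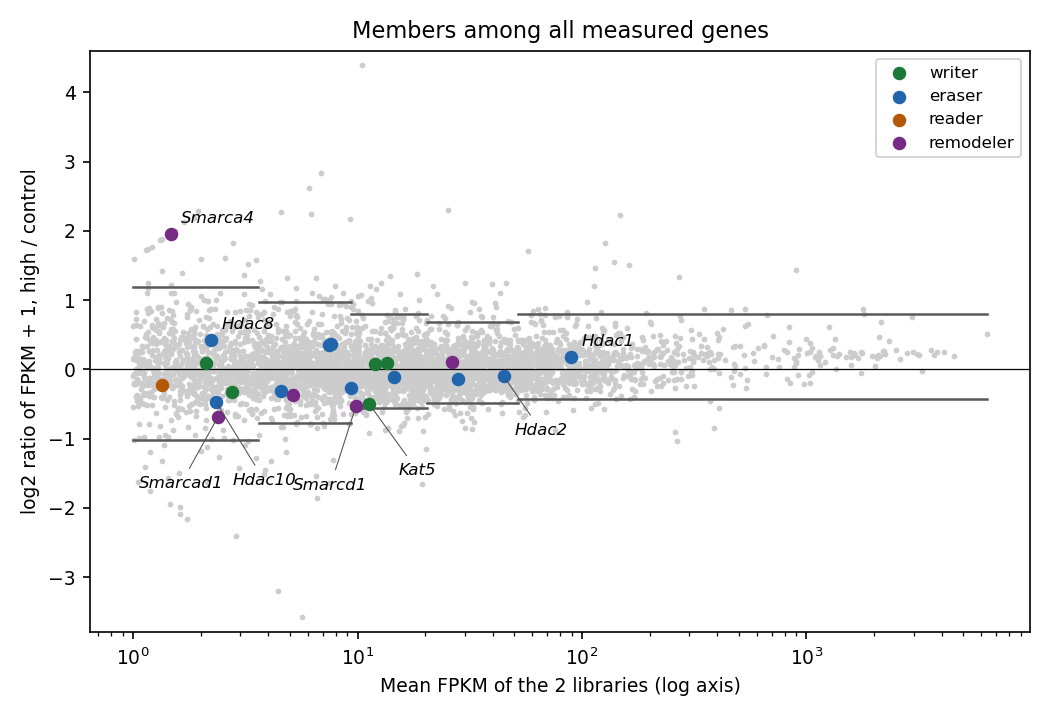
The log2 ratio of FPKM + 1 (high over control phosphate) against the mean FPKM of both libraries (log axis), for the 4366 measured genes (grey) and the members (coloured by role), with lines at the central 95% of each of 5 equal bins of level. Smarca4, at 1.96, lies outside the range of its bin, and the other members lie inside theirs.

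The members were also set against genes of like level. In 5 equal bins of mean FPKM, 1 of the 21 members lay outside the central 95% of log2 ratios in its bin, against 5.04% of measured genes by construction. That member was Smarca4, whose bin ran from -1.02 to 1.18. Smarca4 passed the level filter only through the high phosphate library, so it had to differ. Closest to a lower edge were Smarcd1, at -0.54 against -0.56, and Kat5, at -0.51 against the same edge. Smarcad1, at -0.70, was farther inside, because its bin, with means from 1 to 3.62 FPKM, was wider.

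Shares within pairs of related members do not depend on how the libraries are scaled. The pairs were chosen after the values were seen. Smarcd1 made up 31.8% of the summed FPKM of Smarcd1 and Smarcd2 in the control and 22.3% in high phosphate. Kdm1a made up 55.4% of Kdm1a and Kdm1b in the control and 68.2% in high phosphate. Hdac1 made up 64.3% of Hdac1 and Hdac2 in the control and 68.8% in high phosphate. Smarca2 was listed as 99.8% of the ATPase pair in the control and 59.8% in high phosphate, which rests on the near-zero control value of Smarca4. The share of Smarcd1 was therefore smaller, and those of Kdm1a and Hdac1 larger, in the high phosphate library.

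**Figure D3:**
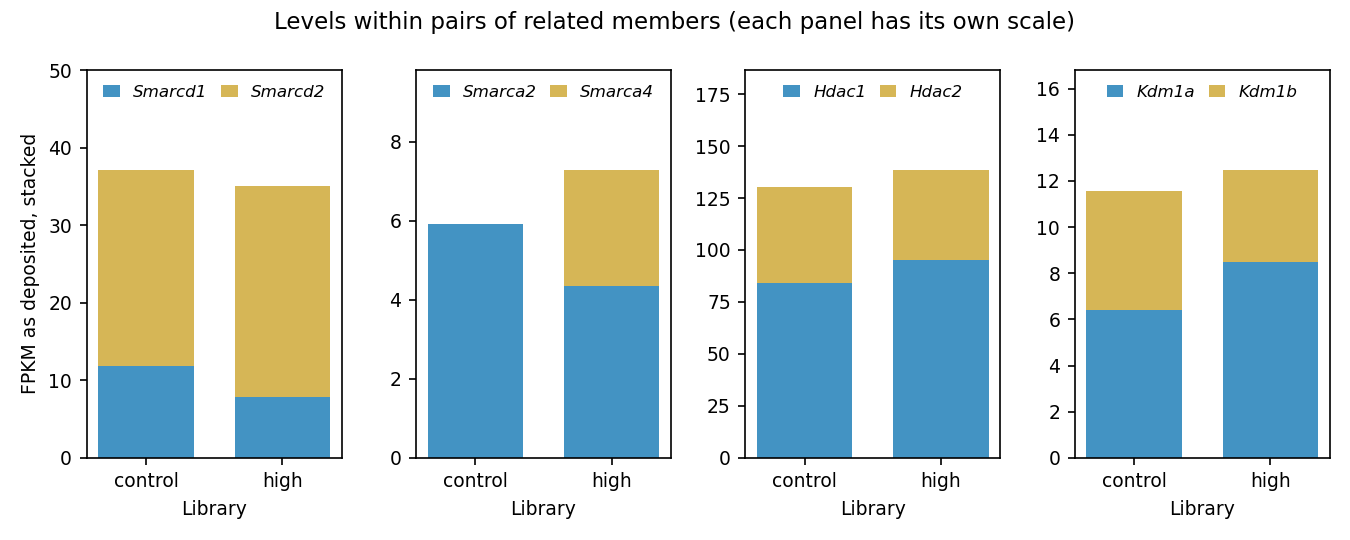
Stacked FPKM as deposited for 4 pairs of related members in the control and the high phosphate library, 1 library each and each panel with its own scale. Smarcd1 goes from 31.8% to 22.3% of its pair and Kdm1a from 55.4% to 68.2%, while the summed height of these pairs differs little.

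Nearest the level filter, the members just inside were Brd1 with a mean of 1.34 FPKM and Smarca4 with 1.47 FPKM. The listed genes just outside were Setd5 with a mean of 0.465 FPKM and Hdac1l with 0.36 FPKM. The other 7 below the filter were Kmt5b, Kmt5c, Sirt3, Kdm5a, Smarcal1, Hdac11 and Chd7, with means from 0.175 FPKM for Kmt5b to 0 for Chd7. Of 11 genes with Kmt symbols 2 were listed, and of 12 with Chd symbols 1 was, all below the filter. Therefore 0 members came from the Kmt or the Chd symbols, and their unlisted genes were not analysed here. Of the 21 members, 8 overlap another gene in the reference annotation, and the sources used here do not state whether counting used strand. In 2 cases the neighbour was itself listed, Cers2 with Setdb1 and Prss8 with Kat8.

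Other chromatin genes were taken from 8 lists of 259 genes outside the symbol rule, of which 109 were listed and 87 measured. Of the 87, 2 were at least 2-fold higher (1.76% of measured genes were) and 0 at least 2-fold lower (0.87%). At 1.5-fold, 6 were higher (7.21% of measured genes) and 1 was lower (3.37%), and 45 lay above 0 (50.5%). Ruvbl2 and Phc2 among the higher genes, and the lower Atxn7l3, had to differ. They passed the level filter only through the library in which each was higher. The median log2 ratio of the 87 was 0.04, near the 0.00 of all measured genes.

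The list of histones, histone chaperones, HP1 and HMG proteins had the highest median, 0.27 over 19 measured genes, with 13 above 0 (50.5% of all measured genes were). The linker histone H1f4 was listed at 1.19 FPKM in control cells and 5.29 FPKM under high phosphate (log2 ratio 1.52). The centromeric histone Cenpa was listed at 15.3 and 25.6 FPKM (0.71), and H2ax, the variant phosphorylated at DNA breaks, at 35.4 and 57.8 FPKM (0.69). Lowest in the list were Hmgn3 at 3.43 and 2.51 FPKM (-0.34) and the replication-coupled assembly factor Chaf1a at 20.5 and 17.6 FPKM (-0.21). After rescaling to the same sum the list's median was 0.10, with 12 of 19 above 0, while the median of all measured genes moved to -0.15. The share of all measured genes above 0 was not computed after rescaling, so this count is not read as a trait of the list.

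Cofactors of the HDAC complexes (NuRD, SIN3, CoREST and NCoR) had a median of -0.05, with 4 of 9 measured genes above 0 (50.5% of all measured genes). Past 1.5-fold were 0, where 7.21% of all measured genes were higher and 3.37% lower. Sin3a, the scaffold of the SIN3 complex, was highest at 2.34 and 3.34 FPKM (log2 ratio 0.38), followed by Tbl1xr1 (0.28). Lowest were the CoREST subunits Hmg20b, at 6.62 and 4.41 FPKM (-0.49), and Rcor3 (-0.25).

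In the list of other SWI/SNF and INO80 family subunits, 6 of 13 measured genes were above 0 (50.5% of all measured genes) and the median was -0.01. Ruvbl2, an ATPase of the INO80 and TIP60 complexes, was listed at 0 in control cells and 3.38 FPKM under high phosphate, while its partner Ruvbl1 was listed at 42.2 and 41.2 FPKM. Like Smarca4, Ruvbl2 passed the level filter only through the high phosphate library, so it had to differ, and its 0 can be a failed estimate. Ss18, a SWI/SNF subunit, was listed at 3.45 and 6.59 FPKM (log2 ratio 0.77). Znhit2 and the actin-like subunit Actl6a were lowest, with log2 ratios of -0.29 and -0.28.

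Other acetyltransferases and their complex subunits had a median of -0.11, with 5 of 14 measured genes above 0 (50.5% of all measured genes). After rescaling to the same sum, which moved the median of all measured genes to -0.15, the list's median was -0.26 and 2 were above 0. The share of all measured genes above 0 was not computed there, so this count is not read as a trait of the list. Atxn7l3, a subunit of the SAGA deubiquitinase module, was listed at 1.74 FPKM in control cells and 0.38 FPKM under high phosphate (log2 ratio -0.99). It was the 1 gene of the 8 lists at least 1.5-fold lower. Atxn7l3 passed the level filter only through the control library, so it had to differ. Epc2, a scaffold of the Kat5 complex, was listed at 4.42 and 2.64 FPKM (-0.57). The highest were Yeats2 (0.25) and Phf20 (0.17).

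Other histone methyltransferases and COMPASS subunits had a median of 0.04, with 7 of 13 above 0 (50.5% of all measured genes). Past 1.5-fold were 0, where 7.21% of all measured genes were higher and 3.37% lower. The arginine methyltransferase Prmt5 was listed at 25.8 FPKM in control cells and 17.9 FPKM under high phosphate (log2 ratio -0.50), and its partner Wdr77, named after its value was seen, at 2.19 and 1.54 FPKM (-0.33). Smyd5 (-0.39) was also low, and Smyd4 (0.34) and Rbbp5 (0.22) were highest.

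Polycomb genes had a median of 0.04, with 6 of 11 above 0 (50.5% of all measured genes). Phc2 was listed at 0.53 FPKM in control cells and 1.82 FPKM under high phosphate (log2 ratio 0.88). It passed the level filter only through the high phosphate library, so it had to differ. Pcgf5 was listed at 31.1 and 41.9 FPKM (0.42). The histone H3 methyltransferases Ezh1 and Ezh2 were lowest, at 4.24 and 3.34 FPKM (-0.27) and at 13.8 and 11.9 FPKM (-0.20). Of 6 measured DNA methylation genes, 4 were above 0 (50.5% of all measured genes), with a median of 0.19. The de novo methyltransferase Dnmt3a was listed at 1.85 and 3.11 FPKM (0.53) and Mbd4 had a log2 ratio of 0.26, against Dnmt1, which maintains methylation at replication, at 19.5 and 17.5 FPKM (-0.15) and Tdg at -0.16. Of other JmjC oxygenases, 2 were measured, Riox1 (-0.13) and Jmjd7 (-0.23).

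**Figure D4:**
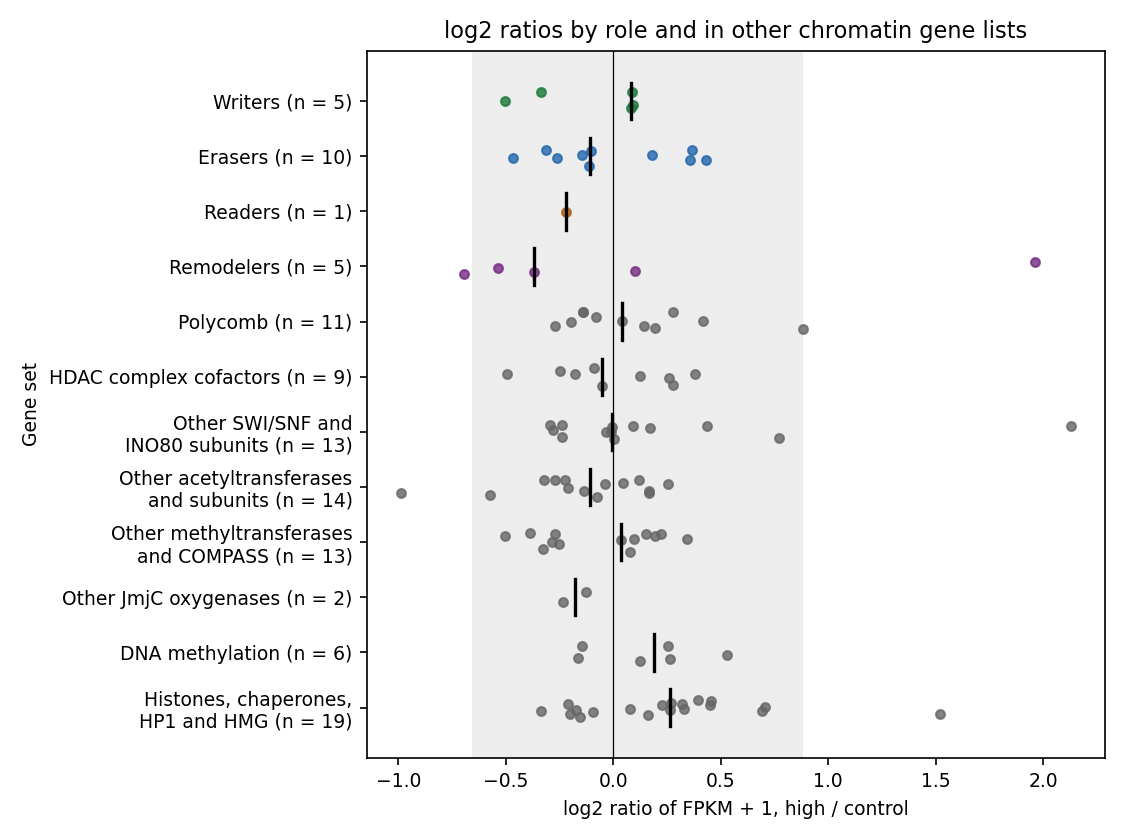
The log2 ratio of FPKM + 1 (high over control phosphate) for each member by role (coloured) and for the measured genes of 8 other chromatin lists (grey), with a black bar at each median and a shaded band at the central 95% of all measured genes, -0.65 to 0.88. Medians run from -0.37 for remodelers to 0.27 for histones and chaperones, and Smarca4, Smarcad1, Ruvbl2, H1f4, Atxn7l3 and Phc2 lie outside the band; vertical scatter within a row has no meaning.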

How the data were processed

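Total RNA of H9c2 cells was sequenced, with 1 library for each phosphate level. The authors deposited FPKM, as the column names state, and every value carries 2 decimals. Tools named in the submitters' processing notes are Cufflinks 2.2.1 with Cuffdiff, TopHat2 2.1.1 and bcl2fastq, on the rat build Rnor_6.0. The sources used here do not give the annotation, strand settings or library scaling. Each file held 8039 entries, of which 236 had no usable identifier and were left out, and 7746 of the other 7803 matched a symbol in the RefSeq gene table for GRCr8, used for names and neighbours only. The log2 ratio used a pseudocount of 1 FPKM. No test could be made from 1 library per level. Counts with the main settings are read against all measured genes. Roles were assigned by enzyme family. Named genes were members past 1.5-fold and the extremes and most abundant of each role; all members are given, and from other lists up to 2 genes at each end, any past 1.5-fold, and genes said to be chosen later; 1 gene that this rule selects is not reported here and was left out of its list. Members, roles, lists and thresholds were chosen with earlier results of these data known. Alternatives were other pseudocounts, rescalings, filters and roles with single members left out. The calculations were tested on simulated data. Python 3.11.15, numpy 2.4.6, pandas 2.3.3 and matplotlib 3.10.9 were used.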

Additional observations from a re-analysis of the deposited data

How the results depend on the processing

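The depth is unknown, so counting error could not be given, and values of a few FPKM limit what can be read from Smarca4, Smarcad1, Hdac8, Hdac10 and Brd1. The deposited FPKM carry no replicate spread; a median was taken to have moved when it shifted by at least 0.1. No paired analysis was possible because each condition had 1 library. After rescaling to the same sum, which moved the median of all measured genes from 0.00 to -0.15, 5 members lay above 0 instead of 9, 3 were at least 1.5-fold lower instead of 1 (Smarcad1, Smarcd1 and Kat5), and the medians were -0.27 for all members, -0.079 for writers, -0.27 for erasers and -0.51 for remodelers. Without the 100 most abundant entries in the sum, 3 members were at least 1.5-fold lower. With a pseudocount of 0.1 FPKM, 2 members were at least 1.5-fold higher (Smarca4 and Hdac8), 3 were at least 1.5-fold lower (Smarcad1, Hdac10 and Smarcd1) and the reader Brd1 had -0.36. Without the filter on low values the median was -0.052 for writers and -0.070 for remodelers, which changed the order of the roles. From a mean of 5 FPKM, 13 members were left, with 0 at least 2-fold higher, 0 at least 1.5-fold higher and 0 at least 1.5-fold lower. The matching shares of all measured genes were not computed under these other settings. These counts are therefore not read as a trait of the members. Signs of single members turned for 4 of 21 under the same sum (Smarcd2, Setd4, Kat8 and Setd2) and for 1 of 21 without the 100 most abundant entries (Setd4), and for 0 under the other 6 settings. Erasers without Sirt5 had a median of -0.11. With the member farthest from 0 left out of each role, the medians were 0.08 for writers, -0.10 for erasers and -0.45 for remodelers. Counting Brd7 and Brd9 as remodelers was not run, since neither was among the genes compared. Readers had no value from 5 FPKM or without their farthest member.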

Other observations

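Genes that supply or consume the metabolites of chromatin enzymes (acetyl-CoA, S-adenosylmethionine, NAD and 2-oxoglutarate) were a list of 24, of which 12 were listed and 8 measured. The median log2 ratio was 0.03, with 4 above 0 (50.5% of all measured genes). After rescaling to the same sum the median was -0.11, and that of all measured genes was -0.15. At 1.5-fold, 2 were higher (7.21% of measured genes were) and 0 lower (3.37%). Both of the higher genes were isocitrate dehydrogenases, which make 2-oxoglutarate. The mitochondrial Idh2 was listed at 157 FPKM in control cells and 248 FPKM under high phosphate (log2 ratio 0.65, and 0.48 after rescaling to the same sum). The cytosolic Idh1 was listed at 0.49 and 2.45 FPKM (1.21), from a control value under 1 FPKM. Idh1 passed the level filter only through the high phosphate library, so it had to differ. Acly, which makes acetyl-CoA from citrate in the cytosol, was listed at 12.4 and 13.7 FPKM (0.13), and Ahcy, which clears S-adenosylhomocysteine, at 66.1 and 60.6 FPKM (-0.12). Lowest of these 8 were the mitochondrial serine hydroxymethyltransferase Shmt2 at 47.3 and 39.2 FPKM (-0.27) and the folate enzyme Mthfd1 at 30.8 and 27.7 FPKM (-0.15). Acly and Ahcy were named after their values were seen.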
